A study of Homo sapiens with 8 samples.

Results

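The genes described are the nuclear genes for the subunits of the 5 oxidative phosphorylation complexes in A549 cells, a line derived from a human lung adenocarcinoma. They were chosen by symbol from the platform's annotation: probe sets with a single symbol that begins with NDUFA, NDUFB, NDUFC, NDUFS or NDUFV and a number, with UQCR, with COX4 to COX8 or with ATP5, or that is SDH with a letter from A to D. Each gene is represented by its probe set with the highest mean over all arrays. This gave 81 genes of the 19775 that have a probe set of their own: 32 of complex I, 3 of complex II, 6 of complex III, 17 of complex IV, 18 of complex V and 5 other transcripts, which are the pseudogenes ATP5MC2P1 and COX6A1P1 and the non-coding NDUFB2-AS1, NDUFV1-DT and NDUFV2-AS1. Among the 76 protein genes, COX7A2L, a factor for joining respiratory complexes into supercomplexes, and ATP5IF1, an inhibitor of the ATP synthase, are not subunits, which leaves 74.

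RNA was measured on 8 Affymetrix expression arrays, 2 in each of 4 groups. Cells were grown as monolayers (2D) or as spheroids formed in hanging drops (3D), and each culture was given either no cytokine (2D control, 3D control) or TNF at 10 ng/mL together with TGFβ at 2 ng/mL (2D treated, 3D treated), in 2 rounds of 48 hours each. The methods describe this as an induction of the epithelial-mesenchymal transition, with vehicle for the controls. All 4 groups are the same tumour line, and the effects of TNF and TGFβ cannot be told apart because they were given together. The methods call the arrays of a group technical duplicates while the deposited design calls them biological replicates, so that the p-values below measure only the spread between these arrays.

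Oxidative phosphorylation turns the energy of food into ATP at the inner mitochondrial membrane. Complex I takes electrons from NADH and complex II takes them from succinate; ubiquinone carries them to complex III, cytochrome c carries them to complex IV, and there they reduce oxygen. Complexes I, III and IV pump protons, and complex V, the ATP synthase, lets the protons return through its membrane part (Fo) to drive ATP formation in its soluble part (F1). Apart from complex II, which is wholly nuclear encoded, each complex joins subunits made in the mitochondrion with many made from nuclear genes, whose promoters are known for sites of NRF1, of ETS factors such as GABP, and of YY1. Several complex IV and V subunits have isoforms for particular tissues or conditions, such as COX4I2, which is known for its use at low oxygen, and COX6A2 and COX7A1 of heart and muscle.

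The promoters below belong to the members on which the comparisons turn: in each complex the called member with the largest fall in treated 3D cultures for which the table held a promoter, followed by 2 members that were higher in untreated spheroids, COX7A2L and ATP5MC2. Each stretch runs 5′ to 3′ along the gene's strand from 130 bases before to 20 bases after the annotated start, from RefSeq on GRCh38.p14. Capitals mark every match to 1 of 6 motifs on either strand: GCATGCGC (NRF1 core), CCGGAAG (ETS factors, GABP included), AAGATGGC (YY1), TCAAGGTCA (estrogen-related receptors, ERR), TGACGTCA (cyclic AMP response element, CRE) and the core promoter motif TATAAA. The stretches lie at chr9:122159760-122159909 (minus strand), chr11:112086743-112086892 (plus strand), chr5:132866512-132866661 (plus strand), chr2:97645932-97646081 (plus strand), chr17:48892657-48892806 (plus strand), chr2:42361198-42361347 (minus strand) and chr12:53675400-53675549 (minus strand).
NDUFA8: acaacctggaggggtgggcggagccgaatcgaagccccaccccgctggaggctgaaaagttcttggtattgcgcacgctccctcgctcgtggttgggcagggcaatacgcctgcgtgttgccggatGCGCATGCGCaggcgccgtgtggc
SDHD: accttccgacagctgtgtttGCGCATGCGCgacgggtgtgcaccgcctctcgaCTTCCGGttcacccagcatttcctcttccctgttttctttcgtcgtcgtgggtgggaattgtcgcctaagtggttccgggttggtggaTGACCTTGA
UQCRQ: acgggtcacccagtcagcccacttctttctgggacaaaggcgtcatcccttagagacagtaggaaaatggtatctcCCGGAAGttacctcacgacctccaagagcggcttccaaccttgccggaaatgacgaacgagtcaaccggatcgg
COX5B: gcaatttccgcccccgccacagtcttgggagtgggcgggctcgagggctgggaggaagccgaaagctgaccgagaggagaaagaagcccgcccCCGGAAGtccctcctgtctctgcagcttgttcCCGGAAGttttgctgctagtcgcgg
ATP5MC1: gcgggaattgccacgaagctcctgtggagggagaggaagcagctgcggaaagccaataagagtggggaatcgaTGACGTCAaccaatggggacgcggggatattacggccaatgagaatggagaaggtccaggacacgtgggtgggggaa
COX7A2L: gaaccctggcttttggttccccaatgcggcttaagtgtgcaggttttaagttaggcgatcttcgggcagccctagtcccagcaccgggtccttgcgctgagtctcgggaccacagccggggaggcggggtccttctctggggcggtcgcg
ATP5MC2: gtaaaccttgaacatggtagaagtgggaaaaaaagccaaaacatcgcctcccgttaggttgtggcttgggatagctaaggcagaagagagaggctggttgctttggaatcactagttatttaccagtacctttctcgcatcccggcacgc
NDUFA8 holds a palindromic NRF1 core next to its start, so that both strands match. SDHD holds the same palindrome further before its start, an ETS motif and the ERR motif. COX5B holds 2 ETS motifs, UQCRQ 1 and ATP5MC1 a CRE, while the stretches of COX7A2L and ATP5MC2 hold none of the 6. COX7A2L and ATP5MC2 were picked by hand. Among other members higher in untreated spheroids, COX8A and UQCRQ hold an ETS motif and NDUFS4 a YY1 motif in the wider windows described next. NDUFV3 and NDUFC1 hold none there.

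Over whole windows from 250 bases before to 50 after the start, which the table gave for 65 of the 76 protein members, the NRF1 core stood in 11 promoters (16.9%), against 4.1% of the 15384 promoters of measured genes. The YY1 motif also stood in 11 (16.9%, against 3.93%), the ETS motif in 18 (27.7%, against 14.2%), the CRE in 4 (6.15%, against 2.61%) and TATAAA in 6 (9.23%, against 9.03%). The ERR motif was found in SDHD alone (1.54%, against 0.254%). The NRF1 and YY1 shares were close in members that fell in treated 3D cultures and in members that were not called. NRF1 and YY1 each stood in 5 of 29 promoters of the former (17.2%) and in 6 of 36 of the latter (16.7%), and the ETS motif in 7 (24.1%) and in 11 (30.6%). The CRE stood in 3 (10.3%) and in 1 (2.78%), and TATAAA in 3 (10.3%) and in 3 (8.33%). These splits were not tested. By complex, YY1 was in 7 of 30 promoters of complex I, in 3 of 14 of complex V and in 0 of 14 of complex IV, and the ETS motif in 4, 6 and 5 of them. A match of letters is a description and not a bound site.

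Expression is given on the log2 scale of the deposited values, where 1 unit is a factor of 2 and the median of an array lies between 2.43 and 2.5. A probe set counts as detected here where at least 2 arrays hold it above their own median. Of the 74 subunit genes, 68 were detected. COX6A2, COX7A1, COX6B2, COX7B2 and COX8C, isoforms of muscle, testis or other tissues, were at background in all 4 groups, as was the only usable probe set of ATP5MF. COX6A2, for example, lay between 2.23 and 2.38 on all arrays. With COX7A2L and ATP5IF1 this gave 70 detected protein members, and the pseudogene ATP5MC2P1 was detected as well. Levels of different probe sets are not comparable, so each gene is compared only with itself. All 6 epithelial markers of the lung line were above background in every group, while 4 of 5 endothelial and 4 of 5 muscle markers were at background. Of 4 leukocyte markers, PTPRC and CD3E were at background and CD14 and ITGAM were not. In treated 3D cultures the log2 of the summed linear levels of the leukocyte list lay at 7.02 to 7.15, below the 8.53 to 8.88 of 3D controls. The means of CD14 were 8.52 in 3D controls and 5.66 in treated 3D cultures, and those of ITGAM 5.30 and 6.21. The log2 sum of the epithelial list lay at 14.95 to 15.02, below 15.52 to 15.61, with 4 of its 6 genes lower and KRT7 at a mean of 12.25 against 11.33. The part of either list in the results below was not tested.

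**Figure D1:**
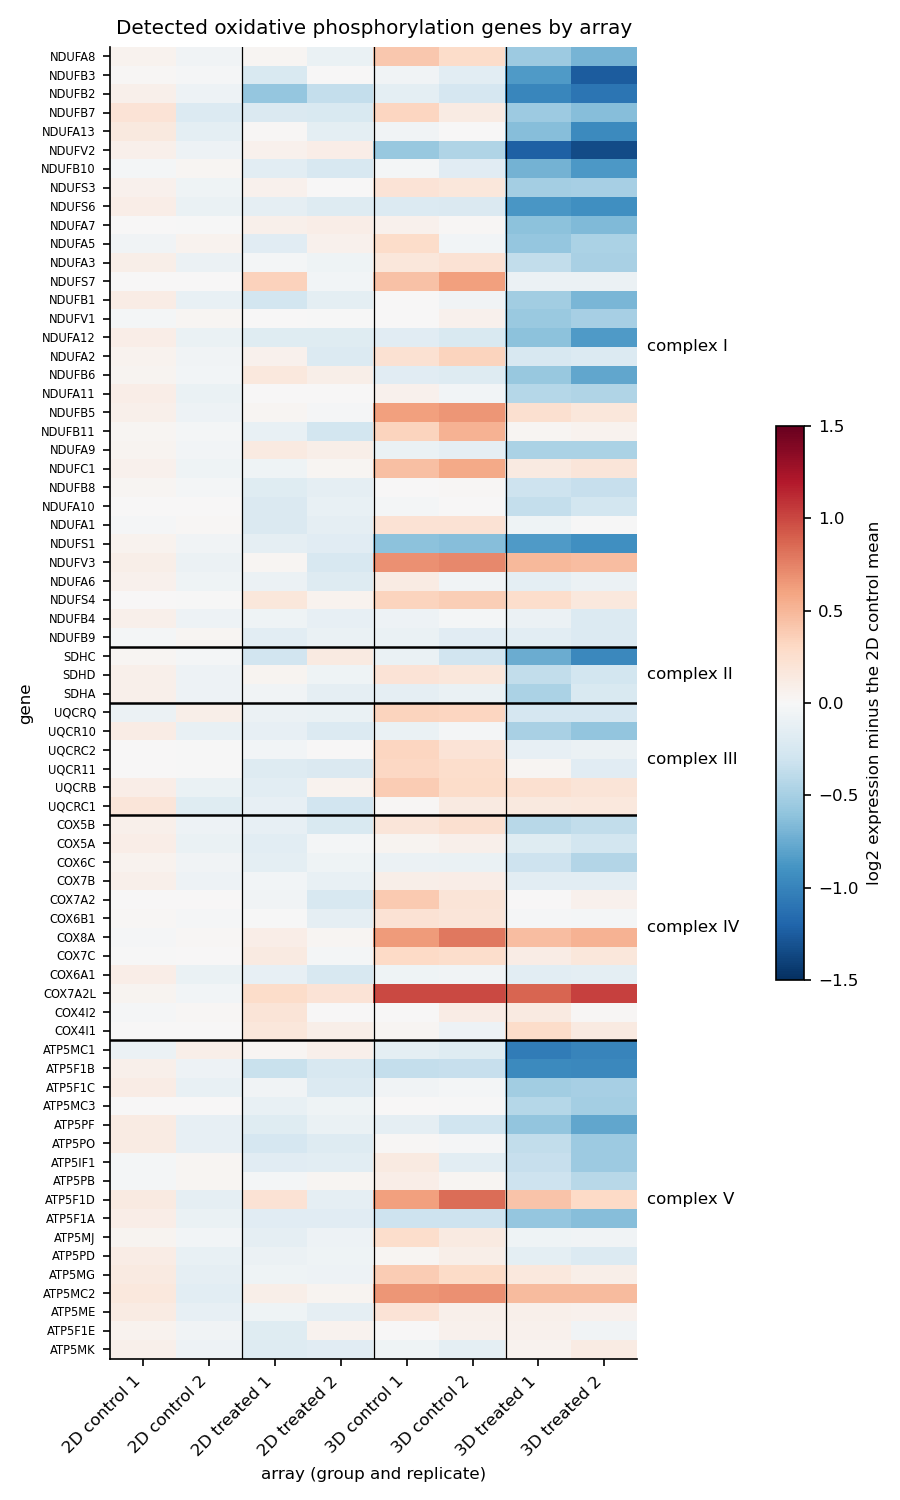
Heat map of the 70 detected protein members (rows, grouped by complex and ordered by the difference between treated and control 3D cultures) on the 8 arrays (columns). Colour is the log2 expression minus the mean of the 2D control arrays of the same gene, blue for lower and red for higher. Complex I is bluest in the 2 columns of treated 3D cultures, and COX7A2L is red in all 4 columns of 3D cultures.

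In spheroids, a large part of the oxidative phosphorylation genes was lower after TNF and TGFβ. Complex I, the largest set, had the highest count. By share, complexes I (65.6%) and III (66.7%) were close, and the median log2 differences of complexes I and II were −0.52 and −0.51. Between treated and control 3D cultures, 32 of the 81 genes (39.5%) fell and 0 rose, at an adjusted p under 0.05 in limma over all probe sets. Over all 19775 genes 10.8% fell and 5.53% rose, and over the 12661 detected genes 16.8% fell and 8.42% rose. The median log2 difference was −0.31 over the 81 genes and −0.36 over the 70 detected protein members, of which 66 were below 0, and it was −0.12 over all detected genes. On 62 of the 70 (88.6%) both treated arrays lay below both control arrays, against 46.6% of detected genes. On 3 (4.29%) they lay above, against 24.6% of detected genes, and on 5 they overlapped. The changes were moderate in size: on the probe sets used, the lowest was −0.96 and no member reached a factor of 2. Some dimmer probe sets went further, as given below. In bulk RNA, fewer cells and less RNA per cell cannot be told apart. Without any 1 array of the 3D cultures fewer members passed, fewest without either replicate of the 3D control. Some of those that then passed, such as NDUFV2-AS1 and COX8C, were at background and not among the 32. The median over the 81 genes ran from −0.30 to −0.34 in these fits.

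Complex I had 21 of its 32 genes lower, with a median log2 difference of −0.52, and all 32 were below 0. The largest fall was that of NDUFA8, an accessory subunit of the membrane arm on the side of the intermembrane space, whose NRF1-bearing promoter is printed above. Its log2 expression was 10.51 and 10.38 on the 3D control arrays and 9.56 and 9.41 on the treated arrays, while the 4 arrays of 2D cultures lay from 10.01 to 10.16. The 3D groups did not overlap, and the log2 difference was −0.96 ± 0.09 (SE, n = 2 per group, limma adjusted p = 0.00962), a decrease by a factor of 1.95.

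NDUFB3, NDUFB2 and NDUFB7, all accessory subunits of the membrane arm, followed. NDUFB3 was at 11.05 and 10.95 on the 3D control arrays and at 10.25 and 9.86 on the treated arrays (−0.94 ± 0.16, SE, limma adjusted p = 0.0346). NDUFB2 was at 11.33 and 11.22 against 10.50 and 10.38 (−0.83 ± 0.11, limma adjusted p = 0.0183), and NDUFB7 at 10.72 and 10.52 against 9.85 and 9.76 (−0.82 ± 0.16, limma adjusted p = 0.0487). In each of these genes the treated arrays were below both controls. Arrays of 1 group lay further apart in NDUFB3 and NDUFB7 than in NDUFA8.

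Of the 5 measured core subunits, which are conserved from bacteria and carry out the catalysis, 4 fell. They were the flavin-binding NDUFV1 (−0.56 ± 0.04, SE, limma adjusted p = 0.00538), NDUFV2 (−0.77 ± 0.08, limma adjusted p = 0.0118) and NDUFS3 (−0.69 ± 0.05, limma adjusted p = 0.00676), together with NDUFS1, the largest subunit of the peripheral arm (−0.26 ± 0.05, limma adjusted p = 0.0458). NDUFS7 had a log2 difference of −0.61 ± 0.14 and was not called (limma adjusted p = 0.0759). Accessory subunits, which serve assembly and stability, fell in 17 of 27 cases. By position, 14 of 18 genes of the membrane arm and 7 of 14 genes of the peripheral arm were called, at medians of −0.47 and −0.55, so the medians do not follow the order of the counts. Among the 11 complex I genes that were not called, the differences ran as near to 0 as −0.04 ± 0.03 for NDUFB9 and −0.10 ± 0.07 for NDUFB4.

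**Figure D2:**
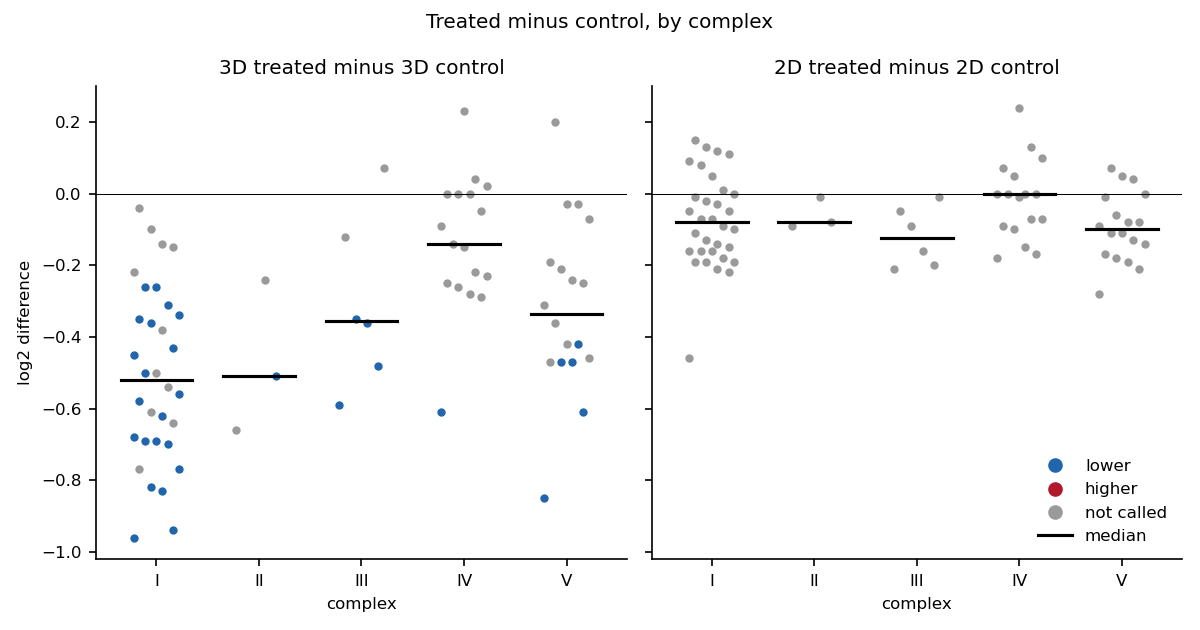
Log2 difference between treated and control cultures (vertical axis) of the 76 protein members by complex (horizontal axis), in 3D on the left and in 2D on the right. Each point is a gene, blue where it was called lower and grey where it was not called (no gene was called higher), and black bars are medians. In 3D the medians run from −0.52 in complex I to −0.14 in complex IV, and in 2D no gene was called.

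In complex II, the succinate dehydrogenase that also serves the citric acid cycle, the membrane anchor SDHD fell. It was at 11.95 and 11.92 on the 3D control arrays and at 11.38 and 11.47 on the treated arrays, with 11.67 to 11.83 in 2D cultures (−0.51 ± 0.07, SE, n = 2, limma adjusted p = 0.0247). The other anchor, SDHC, had a larger difference of −0.66 ± 0.18 with a wider spread, and the flavin-binding SDHA one of −0.24 ± 0.10. Neither of these was called (limma adjusted p = 0.105 and 0.327). Of the dimmer SDHC probe sets, 2 were called lower, at −0.74 (limma adjusted p = 0.0105) and −0.68 (limma adjusted p = 0.025).

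In complex III, 4 of 6 genes fell, by 0.35 to 0.59 on the log2 scale. UQCRQ, a small subunit, was at 13.21 and 13.20 in 3D controls and at 12.62 on both treated arrays (−0.59 ± 0.06, SE, limma adjusted p = 0.0106). UQCR10 (−0.48 ± 0.09), the core protein UQCRC2 (−0.36 ± 0.05) and UQCR11 (−0.35 ± 0.07) fell too, at limma adjusted p of 0.0494, 0.0177 and 0.0479. The other core protein, UQCRC1, was not called, at 0.07 ± 0.14 with a 95% interval from −0.31 to 0.45, nor was UQCRB, at −0.12 ± 0.11.

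Complex IV had 1 called gene among 17. This was COX5B, a nuclear subunit that binds zinc, at 13.57 and 13.63 in 3D controls and at 12.97 and 13.02 on the treated arrays (−0.61 ± 0.07, SE, limma adjusted p = 0.0159). The median was −0.14 over the 17 genes and −0.22 over the 12 that were detected. COX4I1, the common isoform of the regulatory subunit 4, was at 14.10 and 13.99 in 3D controls and at 14.34 and 14.21 in treated cultures. Its difference of 0.23 ± 0.06 was not called (limma adjusted p = 0.118) and was the highest of all members. Another bright probe set of this gene (mean 13.71) gave 0.27 (limma adjusted p = 0.143). A dim one (mean 5.03) gave 0.46 (limma adjusted p = 0.0108). The low-oxygen isoform COX4I2 stayed between 4.59 and 4.80 on the 8 arrays (0.02 ± 0.08, limma adjusted p = 1.0). Among the other isoform pairs, COX6A1 (−0.09 ± 0.07), COX6B1 (−0.23 ± 0.05), COX7A2 (−0.25 ± 0.09) and COX8A (−0.22 ± 0.06) were not called, and their tissue isoforms were at background.

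Probe sets differ within some of these genes. On dimmer probe sets, COX5A and COX7B had log2 differences of −1.45 (limma adjusted p = 0.00554) and −1.92 (limma adjusted p = 0.0268). Their brightest probe sets, used here, gave −0.29 ± 0.09 and −0.26 ± 0.06 without a call. A dimmer probe set each of UQCRB (−1.59), ATP5MC3 (−1.45), UQCR10 (−1.29) and NDUFC1 (−1.11) was called lower too (limma adjusted p from 0.0196 to 0.0305). Of the 32 members that fell, 18 had another detected probe set, and in 8 of them another one fell too. In 9 some other probe set had the opposite sign, none of these was called, and the brightest had a mean of 5.89. The complexes were not tested against each other. Complex IV probe sets were also the brightest: 9 of its 12 detected genes had a mean of 13 or more, against 1 of the 32 of complex I. Members with a mean under 12, from 12 to 13, and of 13 or more fell in 18 of 32, 9 of 16 and 5 of 22 cases, while all detected genes fell in 16.9%, 17.2% and 14.1% of cases. The part of brightness in the difference between complexes was not tested.

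In complex V, 5 of 18 genes fell and the median was −0.33. ATP5MC1 encodes 1 of 3 proteins, with ATP5MC2 and ATP5MC3, that differ in their import sequence and give the same mature subunit c, the ring of the proton-driven rotor. Its log2 expression was 10.17 and 10.13 in 3D controls and 9.27 and 9.33 in treated 3D cultures, while 2D cultures lay from 10.23 to 10.40. It fell by 0.85 on the log2 scale (SE 0.07, n = 2 per group, limma adjusted p = 0.00692), a decrease by a factor of 1.80. ATP5MC3 fell too (−0.47 ± 0.03, limma adjusted p = 0.00637), and ATP5MC2, the third gene for this protein, had a difference of −0.19 ± 0.11 (limma adjusted p = 0.529).

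In the F1 part, the catalytic beta subunit ATP5F1B (−0.61 ± 0.06, SE, limma adjusted p = 0.0108) and the central gamma subunit ATP5F1C (−0.47 ± 0.09, limma adjusted p = 0.0483) fell. The alpha subunit ATP5F1A (−0.31 ± 0.07) and the epsilon subunit ATP5F1E (−0.03 ± 0.10) were not called. ATP5PB of the stalk also fell (−0.42 ± 0.05, limma adjusted p = 0.0175). ATP5MK, a small membrane subunit, had a difference of 0.20 ± 0.06 that was not called, and the inhibitor ATP5IF1 one of −0.42 ± 0.12 (limma adjusted p = 0.126).

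In monolayers the same treatment gave no called member. Of the 81 genes 0 passed in either direction in limma, by the moderated test or by ordinary t statistics, where 0.121% of all genes rose and 0.0759% fell (0.182% and 0.111% of detected genes). At an unadjusted p under 0.05, 3 were higher and 9 lower by either test, where the moderated test gave 5.01% of all genes higher and 5.73% lower. The lowest adjusted p was 0.224, that of NDUFB8, and the median difference was −0.07. Both treated arrays lay below both controls for 26 of the 70 detected protein members (37.1%, against 24.8% of detected genes). They lay above them for 7 (10.0%, against 19.8% of detected genes) and overlapped for 37. NDUFB2 had the lowest value, −0.46 ± 0.11 (SE, limma adjusted p = 0.313), and COX7A2L the highest, 0.24 ± 0.06 (limma adjusted p = 0.371). By complex the medians were −0.08 in complexes I and II, −0.13 in III, 0 in IV and −0.10 in V. The controls of this comparison were themselves apart: replicate 1 of the 2D control was above replicate 2 for 56 of 70 members, by a median of 0.12, against 0.02 over all detected genes, while in the other groups replicate 1 was higher for 40 to 44 of 70. Without replicate 1 the median of the 81 genes was −0.01, and without replicate 2 it was −0.11.

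The difference between both responses was tested directly. For 7 members the 3D response was lower than the 2D response, and it was higher for 0 (8.64% of the 81, where 1.94% of all genes were lower and 1.32% higher, and 2.98% and 1.96% of detected genes). They were 5 subunits of complex I, NDUFA7, NDUFA9, NDUFS3, NDUFV1 and NDUFV2, and the subunit c genes ATP5MC1 and ATP5MC3. All 5 complex I genes belong to the peripheral arm, which holds 14 of the 32, with 0 of the 18 of the membrane arm called. A dimmer probe set of the membrane arm gene NDUFB10 was called lower (−0.51, limma adjusted p = 0.0402). Its brightest one gave −0.50 without a call (limma adjusted p = 0.127). The medians were −0.50 in the peripheral and −0.41 in the membrane arm, where 17 of 18 genes were below 0, and the arms were not tested against each other. The comparison uses the same 3D arrays as the 3D response, so it adds no separate support for the falls there. Without either replicate of the treated 2D cultures 1 member passed, without replicate 1 of the 3D control 3 (2 of the 7 and NDUFV2-AS1 at background), and without replicate 1 of the treated 3D cultures 12, of which the non-coding NDUFV1-DT, also at background, was higher by 0.08.

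NDUFA7, an accessory subunit, lay between 9.50 and 9.61 on the 4 arrays of 2D cultures and at 9.57 and 9.52 in 3D controls, and at 8.89 and 8.84 in treated 3D cultures. Treated 3D cultures thus stood apart below the other 6 arrays, which lay close together. The responses were −0.68 ± 0.03 in 3D and 0.09 ± 0.03 in 2D, and their difference was −0.77 ± 0.04 (SE, limma adjusted p = 0.00822). For ATP5MC1 the difference was −0.90 ± 0.09 (limma adjusted p = 0.033), with a 2D response of 0.05 ± 0.07. NDUFV2, an iron-sulphur subunit of the electron input module, was at 12.88 and 12.72 in 2D controls, 12.86 and 12.90 in 2D treated, 12.23 and 12.35 in 3D controls and 11.58 and 11.46 in 3D treated cultures. Here the spheroids were already lower before treatment, and the difference of responses was −0.85 ± 0.11 (limma adjusted p = 0.0497).

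For NDUFS3 the difference was −0.74 ± 0.07 (SE, limma adjusted p = 0.0319), for NDUFV1 −0.55 ± 0.05 (limma adjusted p = 0.0289), for NDUFA9 −0.48 ± 0.05 (limma adjusted p = 0.033) and for ATP5MC3 −0.38 ± 0.05 (limma adjusted p = 0.0471). NDUFA8, with the largest fall in 3D, had a difference of −0.93 ± 0.13 just outside the threshold (limma adjusted p = 0.0524). Over the 81 genes the median difference of responses was −0.25, against −0.12 over all detected genes. Complex IV had 0 called genes and a median of −0.14, and COX4I1 a difference of 0.10 ± 0.09 (limma adjusted p = 0.751). A dim probe set of COX5A was called lower (−1.31, limma adjusted p = 0.0362), while its brightest one gave −0.20 (limma adjusted p = 0.709).

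**Figure D3:**
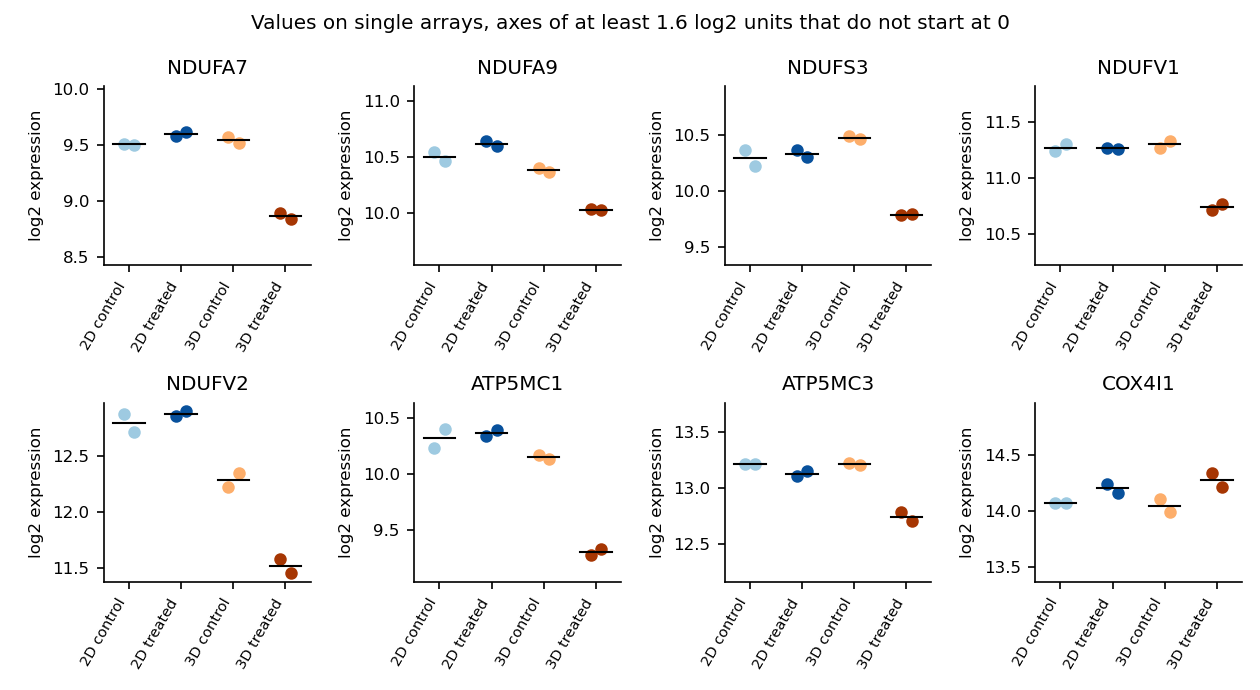
Log2 expression on single arrays (points) and group means (lines) for the 7 members whose responses differed between 3D and 2D, and for COX4I1, which was not called. Horizontal axes give the 4 groups, and vertical axes span 1.6 log2 units or slightly more and do not start at 0. In each of the 7 genes, which were picked by a call on these arrays, both treated 3D arrays lie below the other 6. NDUFA7, for example, is at 8.89 and 8.84 there, whereas COX4I1 lies between 13.99 and 14.34 throughout.

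Without cytokines, spheroids and monolayers differed in few of these genes and in both directions, on the probe sets used. Between 3D and 2D controls 8 members were higher (9.88%, against 5.77% of all and 8.93% of detected genes) and 3 were lower (3.70%, against 4.9% of all and 7.61% of detected genes), which is near the share of detected genes. The median was 0.04. The largest difference was that of COX7A2L, the supercomplex factor. It was at 11.55 and 11.47 in 2D controls, 11.78 and 11.72 in 2D treated, 12.50 on both arrays of 3D controls and 12.38 and 12.53 in 3D treated cultures. All 4 arrays of spheroids were above all 4 of monolayers, and the difference between controls was 0.99 ± 0.06 (SE, limma adjusted p = 0.00826), an increase by a factor of 1.99.

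The other members that were higher in 3D controls were accessory subunits of complex I and small subunits of complexes III, IV and V. COX8A of complex IV was at 13.27 and 13.43 in 3D and at 12.62 and 12.65 in 2D controls (0.72 ± 0.06, SE, limma adjusted p = 0.0146). ATP5MC2 of the subunit c trio was at 14.00 and 14.02 against 13.50 and 13.18 (0.67 ± 0.11, limma adjusted p = 0.0458), while ATP5MC1 (−0.16 ± 0.07) and ATP5MC3 (0.00 ± 0.03) were not called, so that 1 of the 3 genes for this protein was called. In complex I, NDUFV3 (0.70 ± 0.11), NDUFB5 (0.64 ± 0.06), NDUFC1 (0.51 ± 0.06) and NDUFS4 (0.35 ± 0.05) were higher, as was UQCRQ of complex III (0.34 ± 0.06), at limma adjusted p from 0.0168 to 0.0461.

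The 3 that were lower in 3D controls are core subunits of complex I and the catalytic beta subunit of complex V. NDUFS1 was at 10.33 and 10.31 in 3D and at 11.00 and 10.89 in 2D controls (−0.62 ± 0.05, SE, limma adjusted p = 0.0119). NDUFV2 (−0.51 ± 0.08, limma adjusted p = 0.0392) and ATP5F1B (−0.35 ± 0.06, limma adjusted p = 0.0483) were lower as well. COX4I1 and COX4I2 had differences of −0.03 ± 0.06 and 0.06 ± 0.08, and SDHA, SDHC and SDHD of −0.12 ± 0.10, −0.19 ± 0.18 and 0.19 ± 0.07, none of them called. Some other probe sets of uncalled members were called. Those of COX5A (0.66), ATP5F1D (0.52), UQCRB (0.43), COX5B (0.42), ATP5MG (0.41) and NDUFB8 (0.20) were higher (limma adjusted p from 0.0263 to 0.0465). Dim ones of ATP5F1C (−2.69), UQCRC2 (−2.65) and SDHC (−0.85) were lower (limma adjusted p from 0.0163 to 0.0373). The comparison of treated and control 3D cultures shares these 3D control arrays. Without any 1 array of the 3D control, of the treated 2D or of the treated 3D cultures 4 to 6 members passed, of which 3 to 5 were among the 11, with the lowest number without replicate 1 of the 3D control (COX7A2L, COX8A, NDUFS1 and, at background, NDUFV2-AS1).

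**Figure D4:**
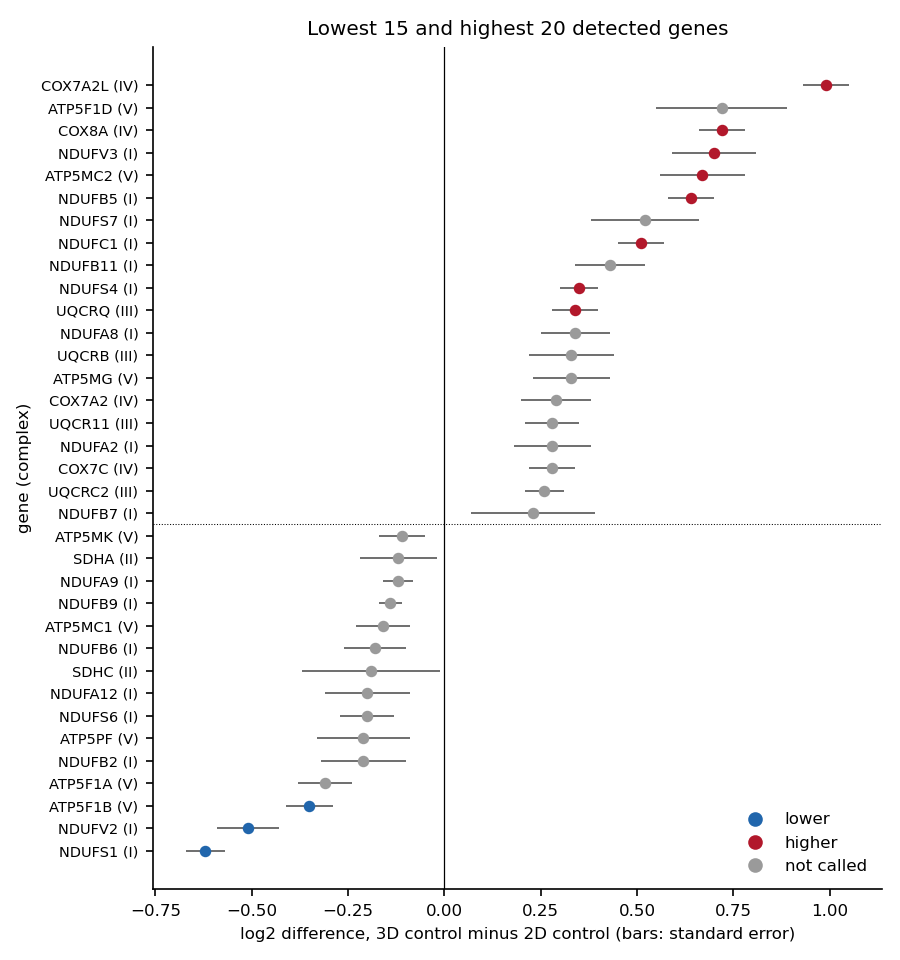
Log2 difference between 3D and 2D control cultures (horizontal axis, with standard errors as bars) for the 15 lowest and 20 highest of the 70 detected protein members (vertical axis, complex in brackets). Red points were called higher, blue points lower and grey points were not called. COX7A2L stands highest at 0.99, and NDUFS1 lowest at −0.62.

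Among cytokine-treated cultures, spheroids had lower levels than monolayers for 21 members (25.9%, against 14.5% of all and 22.7% of detected genes) and higher levels for 3 (3.70%, against 9.06% of all and 13.9% of detected genes). Of the 71 detected members 29.6% were lower, so the share that was lower is near that of detected genes. Complex I held 16 of the 21 and complex V the other 5. NDUFV2 had the largest difference, −1.36 ± 0.08 (SE, limma adjusted p = 0.00292), a factor of 2.56, followed by ATP5MC1 at −1.07 ± 0.07 (limma adjusted p = 0.00333), a factor of 2.09. These were the only members past a factor of 2 in any comparison on the probe sets used. NDUFB3 (−0.94 ± 0.16), NDUFB6 (−0.81 ± 0.08), NDUFA7 (−0.73 ± 0.03), ATP5F1B (−0.68 ± 0.06), ATP5F1A (−0.44 ± 0.07) and ATP5MC3 (−0.38 ± 0.03) were lower at limma adjusted p from 0.00155 to 0.0254. The 3 that were higher are COX7A2L (0.70 ± 0.06), NDUFV3 (0.58 ± 0.11) and COX8A (0.43 ± 0.06), at limma adjusted p of 0.00614, 0.0348 and 0.0181. ATP5MC2 was at 13.81 and 13.82 in treated spheroids and at 13.43 and 13.38 in treated monolayers, a difference of 0.41 ± 0.11 that was not called (limma adjusted p = 0.0938). On their brightest probe sets, complexes II and III had 0 called genes, with SDHC at −0.78 (limma adjusted p = 0.0551). Several dimmer probe sets of SDHC were called lower, at −0.71 to −1.39 (limma adjusted p from 0.0067 to 0.0478). A dimmer probe set each of UQCR10 (−1.17), UQCR11 (−0.45) and UQCRB (−2.15) was called lower too (limma adjusted p = 0.0223, 0.017 and 0.0073). The brightest ones of UQCR11 and UQCRB gave 0.14 and 0.26 without a call. Without replicate 1 of the treated 2D cultures, either replicate of the 3D control or replicate 2 of the treated 3D cultures 15 members passed, and without replicate 2 of the treated 2D cultures 12.

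**Figure D5:**
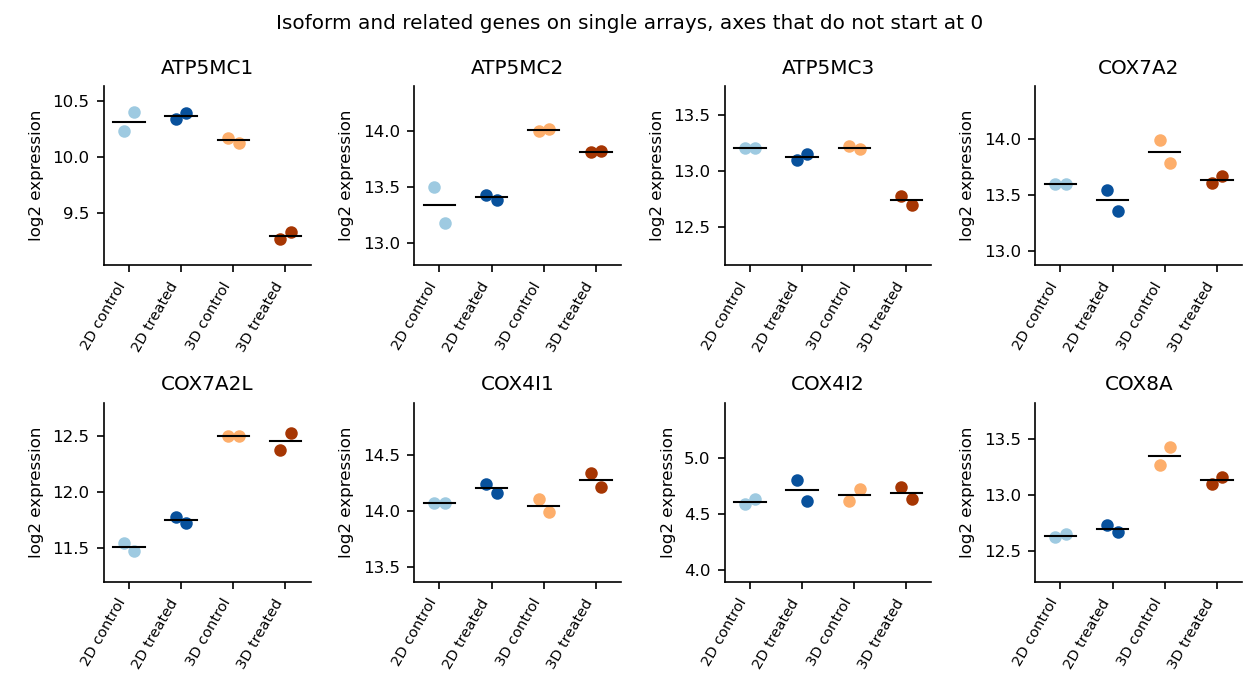
Log2 expression on single arrays (points) and group means (lines) of the 3 genes for subunit c, of COX7A2 and the related COX7A2L, of both COX4 isoforms and of COX8A. Horizontal axes give the 4 groups, and vertical axes span 1.6 log2 units or slightly more and do not start at 0. ATP5MC1 and ATP5MC3 are lowest in treated 3D cultures, ATP5MC2, COX7A2L and COX8A are higher in 3D than in 2D cultures, and COX4I2 lies near 4.6 in every group.

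Other genes of the same pathway were counted from lists. Of 45 assembly factors of the complexes, 24 fell and 0 rose in treated 3D cultures, with a median of −0.73. Examples are ACAD9 of complex I assembly (−2.21 ± 0.25, SE, limma adjusted p = 0.0143), COA3 of complex IV assembly (−1.58 ± 0.13, limma adjusted p = 0.00723) and SDHAF3 of complex II assembly (−1.42 ± 0.23, limma adjusted p = 0.031). Of 77 mitochondrial ribosomal protein genes, whose ribosomes make the subunits encoded in the mitochondrion, 37 fell and 0 rose (median −0.49), among them MRPL24 (−1.36 ± 0.13), MRPL40 (−1.28 ± 0.14) and MRPL57 (−1.15 ± 0.11). Of 17 genes for electron carriers and coenzyme Q synthesis, 7 fell and 0 rose (median −0.82), such as COQ8A (−2.28 ± 0.24), COQ3 (−1.56 ± 0.29) and ETFB (−1.37 ± 0.13). These are shares of 53.3%, 48.1% and 41.2%, beside the 10.8% of all genes and 16.8% of detected genes that fell. The medians stand beside −0.31 over the 81 members, −0.36 over the detected protein members and −0.52 over complex I.

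Of 18 genes of mitochondrial transcription and biogenesis, 3 fell (16.7%, close to the 16.8% of detected genes) and 1 rose (5.56%, against 8.42%), with a median of −0.36. PPARGC1A, the coactivator of mitochondrial biogenesis, fell by 2.32 on the log2 scale (SE 0.22, limma adjusted p = 0.0101), as did MTERF1 (−1.38 ± 0.19) and the mitochondrial transcription factor TFAM (−0.72 ± 0.11), while POLG, the mitochondrial DNA polymerase, rose (0.75 ± 0.09, limma adjusted p = 0.0176). Of 12 carriers of the mitochondrial membranes, 5 fell (41.7%) and 0 rose (median −0.42), with UCP2 (−1.67 ± 0.21), the ADP/ATP carrier SLC25A4 (−1.35 ± 0.07) and SLC25A11 (−0.95 ± 0.12) lowest. In monolayers 0 genes of these 5 lists passed in either direction, where only 0.182% of detected genes rose and 0.111% fell. The responses differed for 7 assembly factors, 6 ribosomal protein genes, 2 carrier or coenzyme Q genes, PPARGC1A (−2.47 ± 0.31, limma adjusted p = 0.0454) and SLC25A4 (−1.20 ± 0.10, limma adjusted p = 0.0212), all lower in 3D. These are 15.6% of the assembly factors, 7.79% of the ribosomal protein genes and 11.8% of the carriers and coenzyme Q genes, against 2.98% of detected genes. Of 8 housekeeping genes, 1 fell (12.5%) and 0 rose in treated 3D cultures, with a median of −0.09. The gene that fell, PGK1 (−0.35 ± 0.07, limma adjusted p = 0.0457), is also the hypoxia target that was lower below.

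Targets of the hypoxia response moved with culture form. Between 3D and 2D controls 12 of 13 were higher and 0 lower, where 5.77% of all and 8.93% of detected genes were higher, with a median log2 difference of 2.47 and values up to 5.98 ± 0.66 for the oxygen sensor EGLN3, 4.85 ± 0.24 for NDRG1 and 4.51 ± 0.29 for ANKRD37 (SE, limma adjusted p = 0.0212, 0.00628 and 0.00885). The same number, 12 of 13, were higher in treated 3D than in treated 2D cultures, where 9.06% of all and 13.9% of detected genes were higher. Between treated and control 3D cultures 3 were higher, LOX (2.17 ± 0.25), SLC2A1 (1.38 ± 0.21) and VEGFA (0.62 ± 0.10), and 1 was lower (23.1% and 7.69%, against 8.42% and 16.8% of detected genes). COX4I2, known for its response to low oxygen, differed by 0.06 ± 0.08 between 3D and 2D controls. The part of oxygen supply in the levels of the oxidative phosphorylation genes was not tested.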

How the data were processed

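RNA of A549 cells was measured on 8 Affymetrix arrays, 2 per group. The values are on a log2 scale as deposited; the authors obtained them with GCRMA, a method that corrects background by probe sequence, quantile normalizes the arrays and summarizes each probe set. Per the labels, limma 3.6.9 was among the authors' tools. The table had 54675 probe sets, of which 62 controls were left out, and 0 columns of other samples. The platform annotation gave 1 symbol to 41091 probe sets, several to 1801 and none to 11721. The members had 156 probe sets, with several for 45 genes.

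For this report 4 group means were estimated per probe set by lmFit and eBayes of limma 3.58.1 (R 4.3.3), over 54613 probe sets on all 8 arrays with 4 residual degrees of freedom. Benjamini-Hochberg adjustment ran over all probe sets, and a gene was called at an adjusted p under 0.05. Promoters and coordinates came from RefSeq on GRCh38.p14, and the figures used matplotlib 3.10.9 (Python 3.11.15). The number of arrays limits the precision.

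The members and the gene lists were chosen with earlier results of these data known. Named genes are, per comparison and complex, up to 4 called members with the largest differences, called members that go against the majority, isoform sets, the SDH genes, transcripts that are not subunits, and up to 3 called genes of each other list. NDUFA8 in the difference of responses, NDUFA9, the remaining core subunits of complex I, NDUFB4, NDUFB8, NDUFB9, NDUFS4, UQCRB, UQCRC1, COX5A, COX7B, ATP5PB, ATP5MK, ATP5IF1, ATP5F1A and ATP5F1E in 3D, NDUFB2 in 2D, CD14, ITGAM, PTPRC, CD3E and TFAM fall outside this rule and were named after their values were seen. The same holds for NDUFB10 and COX5A in the difference of responses and for UQCR10, UQCR11 and UQCRB between treated cultures. It also holds for NDUFC1 in 3D and, between controls, for COX5A, COX5B, UQCRB, UQCRC2, ATP5F1C, ATP5F1D, ATP5MG and NDUFB8. The counts of called members and the values of named genes were recomputed with a trend of variance on intensity, after quantile normalization, after subtraction of each array's median, without dim probe sets, with ordinary t statistics, with the replicate number as a block, on the arrays of 1 comparison, with the probe set of largest difference, with adjustment over 1 probe set per gene, with a fold of at least 2, and without each array in turn. The counts of the other lists were recomputed under the settings that refit the model, and the motif, brightness and array order counts were not recomputed.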

Additional observations from a re-analysis of the deposited data

Results flagged for a closer look

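For 7 genes the response to TNF and TGFβ differed between 3D and 2D cultures by the test of the difference itself (limma, adjusted p under 0.05). The difference of the log2 responses was −0.77 for NDUFA7, −0.48 for NDUFA9, −0.74 for NDUFS3, −0.55 for NDUFV1, −0.85 for NDUFV2, −0.90 for ATP5MC1 and −0.38 for ATP5MC3. In all 7 both treated 3D arrays lay below the other 6 arrays. The genes were picked by a call on these arrays, so this order is no separate support, and it was not counted over all genes. NDUFA7 was the only one that passed under every alternative other than a fold of at least 2, at limma adjusted p up to 0.0324. The 2D responses of these genes lay between −0.09 and 0.12, and none of them was called.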

How the results depend on the processing

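In the 3D response (32 members), an intensity trend gave 35, quantile normalization 36, array medians set to 0 gave 45, leaving out dim probe sets 44, ordinary t statistics 23 and adjustment over 1 probe set per gene 40. The arrays of the comparison alone gave 8, of which 7 were among the 32, and a fold of at least 2 gave 0. With the probe set of the largest difference 31 passed, 1 higher and 30 lower. On such a dim probe set ATP5F1C was at 1.15 (limma adjusted p = 0.0669) and COX5B at 1.16 (adjusted p = 0.393), both opposite to their brightest probe sets. ATP5MC1 and NDUFS3 passed under every alternative other than the fold of at least 2, at limma adjusted p up to 0.0456 and 0.0321, and NDUFA8 under every one other than this and the arrays of the comparison alone.

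Arrays with the same replicate number had deviations that correlated at −0.0145 to 0.283 between groups over 27306 brighter probe sets, and no label ties the numbers to a shared batch, so they were taken to share only a number. With the replicate number as a block, 21 members passed in the 3D response, all among the 32, 0 in the 2D response, 4 in the difference of responses (3 of them among the 7), 5 between 3D and 2D controls and 21 between treated 3D and 2D cultures.

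In the difference of responses (7 members), subtracted array medians gave 11, the dim filter 11, ordinary t statistics 1 and a fold of at least 2 gave 0. Between 3D and 2D controls (11 members), the dim filter gave 18, ordinary t statistics 5, the probe set of the largest difference 18, and the arrays of the comparison alone and a fold of at least 2 gave 0 each. Between treated 3D and 2D cultures (24 members), the arrays of the comparison alone gave 3 and a fold of at least 2 gave 2.

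Leaving out each array in turn gave 11 to 28 members in the 3D response, 0 to 2 in the 2D response, 1 to 12 in the difference of responses, 4 to 10 between 3D and 2D controls and 12 to 24 between treated cultures. A group left with 1 array is assumed to vary like the others. In the 2D response the member that passed without replicate 1 of the 2D control was UQCRQ (−0.17), and those without replicate 2 were ATP5F1A (−0.28) and NDUFB2-AS1 (−0.04), the last at background. Among genes of the other lists, TFAM ran from −2.01 to −0.66, SLC25A11 from −1.73 to −0.81, LOX from 1.91 to 4.57 and VEGFA from 0.57 to 1.61 in the 3D response over these alternatives, and these 4 kept their sign. Over the refitted settings 3 to 31 assembly factors, 3 to 47 ribosomal protein genes, 1 to 11 carrier or coenzyme Q genes, 0 to 9 biogenesis genes and 0 to 7 membrane carriers were lower in the 3D response, the lowest number of each on the arrays of the comparison alone, and 8, 12, 4, 1 and 2 without replicate 1 of the 3D control. Of the hypoxia targets 3 to 12 were higher between 3D and 2D controls and 0 to 13 between treated cultures, the lowest again on the arrays of the comparison alone. The median of detected genes in the 3D response was −0.08 after quantile normalization and −0.17 with subtracted array medians. The cause was not tested.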
